A study of Homo sapiens with 12 samples.

Results

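The transcripts described here encode 10 abundant plasma proteins made by the liver, chosen by name: albumin (ALB), alpha-fetoprotein (AFP), fetuin-A (AHSG), transthyretin (TTR), retinol-binding protein 4 (RBP4), alpha-1-microglobulin/bikunin precursor (AMBP), vitamin D-binding protein (GC), haptoglobin (HP), orosomucoid 1 (ORM1) and serum amyloid A1 (SAA1). They are 10 of the 60666 genes listed in each count file. The counts were obtained from Huh7, an established human hepatocellular carcinoma cell line, treated with 25 µM Molidustat, an inhibitor of the HIF prolyl hydroxylases, or with its solvent DMSO alone. Treatment lasted 24 h or 48 h, and each of the 4 groups had 3 replicates (12 libraries). Huh7 is a single transformed line, so all groups share its genetic background. Counts were taken from the 3′ end of transcripts and were scaled to CPM. For this, each library total over the genes tested was multiplied by a factor for its composition (TMM). CPM therefore do not sum to the same total in every library.

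Hepatocytes secrete most plasma proteins. Albumin carries fatty acids, hormones and drugs, and alpha-fetoprotein, encoded next to it, is its fetal counterpart, which is silenced in adult liver and often expressed again in liver tumours. During inflammation, interleukin-6 acting through STAT3 and interleukin-1 raise the positive acute phase proteins, such as haptoglobin, orosomucoid and serum amyloid A. Albumin, fetuin-A, transthyretin and retinol-binding protein are negative acute phase proteins, whose synthesis decreases in the same state.

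The genes lie on 7 chromosomes of GRCh38, and 3 of them are on the long arm of chromosome 4. ALB (ENSG00000163631, chr4:73397114-73421482) and AFP (ENSG00000081051, chr4:73431138-73456174) are neighbours on the plus strand, and GC (ENSG00000145321, chr4:71741696-71804041) is on the minus strand. ORM1 (ENSG00000229314, chr9:114323098-114326479, plus strand) and AMBP (ENSG00000106927, chr9:114060127-114078328, minus strand) are on chromosome 9. The others are AHSG (ENSG00000145192, chr3:186613060-186621318, plus strand), RBP4 (ENSG00000138207, chr10:93591687-93601744, minus strand), SAA1 (ENSG00000173432, chr11:18266260-18269977, plus strand), HP (ENSG00000257017, chr16:72054505-72061055, plus strand) and TTR (ENSG00000118271, chr18:31557009-31598833, plus strand).

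Promoters of 6 members (ALB, AFP, AHSG, AMBP, ORM1 and RBP4) were in the RefSeq table of GRCh38.p14, each from 250 bases before to 50 bases after a gene start, with 3 starts for RBP4. The letters GTTAAT, part of the site of the hepatocyte factor HNF1, were searched on both strands and were found in ALB and AFP, the members with the highest levels, and in 6.88% of the 35116 promoters in the table. TTCNNNGAA, the letters bound by STAT factors, were found in RBP4 and in 7.66% of promoters. The HIF core, ACGTG or GCGTG, was found in ALB, ORM1 and RBP4 and in 48.4% of promoters, and TATAAA in AFP, ORM1 and RBP4 and in 11.5%. The forkhead letters TGTTTAC were found in 0 of the 6 members and in 3.42% of promoters. A match of letters describes the window and does not show a bound site. The windows below show, in capitals, the HNF1 letters of ALB and AFP, the STAT letters of RBP4 and the HIF core of ORM1, and each is read 5′ to 3′ on the strand of its gene.
ALB, HNF1 letters, chr4:73404214-73404243, plus strand: aagatgagtctaGTTAATaatctacaatta
AFP, HNF1 letters, chr4:73436077-73436106, plus strand: aaccgctatgctGTTAATtattggcaaatg
RBP4, STAT letters, chr10:93601911-93601940, minus strand: tcaaagtggtTTCAGGGAAgtgccacggag
ORM1, HIF core, chr9:114323102-114323131, plus strand: ctgcctggctccACGTGcctcctggtctca

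Gene counts summed to between 1499273 and 9179389 in a library. The smallest library, DMSO 48 h replicate 2, stood apart from the others. Reads on no annotated feature made up 50.4% of its listed reads, against 17.1 to 25.6% in the other 11 libraries, and its TMM factor was 0.629, against 1.01 to 1.08. It had the lowest level of 7 of the 9 members that were detected. The members' log2 fold changes at 48 h are therefore given with and without it, and the part of its composition in these results was not tested. A second library, Molidustat 24 h replicate 2, had the highest level of ALB, TTR and RBP4 of all 12 libraries.

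The labelled cell type was checked against its markers. All 9 hepatocyte markers were detected in every library, and their summed level ranged from 5109 CPM in DMSO 48 h replicate 2 to 16923 CPM in Molidustat 48 h replicate 3. TF or KRT18 was the most abundant of them in 11 libraries and HNF4A in DMSO 48 h replicate 2. Markers of macrophages summed to at most 14.7 CPM (5 genes, led by CD14 or CD68, with CD163 and MARCO at 0 in all libraries). Those of endothelial cells reached at most 6.45 CPM (4 genes, led by PECAM1, with VWF at 0) and those of fibroblasts at most 16.2 CPM (5 genes, with LUM highest where the sum was highest). The 4 cholangiocyte markers summed to 1062.5 CPM in DMSO 48 h replicate 2, where SOX9 alone stood at 1048 CPM, and to between 192 and 583 CPM in the other libraries. At 48 h the macrophage markers summed to 4.88, 2.13 and 5.37 CPM in DMSO and to 9.66, 10.3 and 14.7 CPM in Molidustat, and the fibroblast markers to 5.96, 0 and 4.03 CPM against 16.2, 10.7 and 9.96 CPM. SOX9 stood at 289, 1048 and 305 CPM in DMSO and at 168, 106 and 142 CPM in Molidustat at that time. The other cholangiocyte markers detected had higher means in Molidustat, with KRT19 at 33.6, 2.13 and 32.4 CPM against 47.0, 44.6 and 79.9 CPM and EPCAM at 45.4, 12.8 and 36.5 CPM against 70.6, 41.2 and 78.5 CPM. At 24 h KRT19 was at 62.7, 43.9 and 59.9 CPM in DMSO and at 107.9, 86.9 and 74.6 CPM in Molidustat, without overlap. SOX9, EPCAM and the macrophage and fibroblast sums overlapped at that time. Hepatocyte marker sums were 8904, 8545 and 8519 CPM in DMSO against 13669, 12329 and 12448 CPM in Molidustat at 24 h. At 48 h they were 8660, 5109 and 9517 CPM against 15846, 14751 and 16923 CPM. The groups overlapped for EPCAM and not for the other genes and sums given here at 48 h. The part of all these markers in the members' results was not tested. In bulk RNA, fewer cells expressing a transcript and less of it per cell cannot be told apart.

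The drug response was checked with 7 HIF target genes, of which 6 could be tested. EdgeR called 3 of them higher at 24 h and 2 at 48 h, against 0.231% and 0.21% of all genes tested. BNIP3, a mitophagy receptor, was higher by 2.81 ± 0.34 on the log2 scale (SE, n = 3 per group) at 24 h and 2.68 ± 0.34 at 48 h. It rose at each time (edgeR adjusted p = 9.8e-04 at 24 h and 0.0015 at 48 h), but missed the threshold at 48 h when only the groups of that time were fitted (2.66, adjusted p = 0.0569).

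The plasma protein transcripts together made up a larger share of the counts in the Molidustat libraries at each time, which is given as a description without a test. At 24 h, 0.994, 1.04 and 1.13% of the gene counts fell on them in the DMSO libraries and 1.22, 1.46 and 1.55% in the Molidustat libraries. At 48 h the shares were 1.35, 0.380 and 1.22% with DMSO and 1.69, 1.49 and 1.96% with Molidustat. The groups did not overlap at either time, also when DMSO 48 h replicate 2 was set aside. The lowest share, in that library, had a 95% Wilson interval of 0.370 to 0.390%, and the highest one of 1.95 to 1.98%. These intervals cover only counting error of independent reads, and they are too narrow if PCR copies are among the counts. AFP alone made up 60.8 ± 3.3% of the members' counts in DMSO (SD, n = 3) and 55.2 ± 15.3% in Molidustat at 24 h, where the Molidustat libraries ranged from 38.1 to 67.7%. At 48 h its part was 60.7 ± 4.0% in DMSO and 53.4 ± 3.7% in Molidustat, and the groups overlapped at both times.

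**Figure D1:**
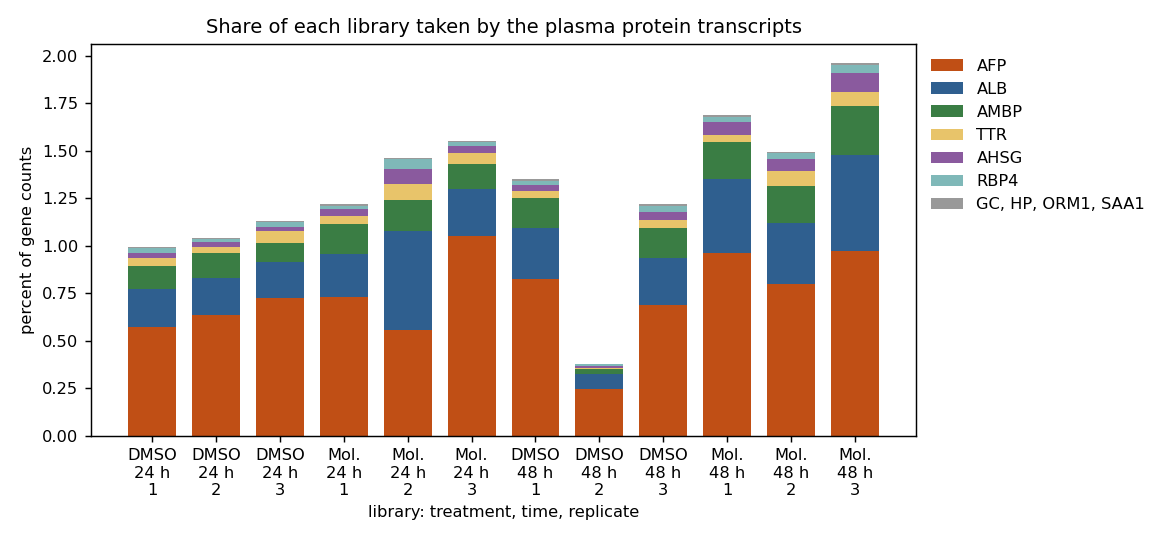
Percent of gene counts taken by the plasma protein transcripts in each of the 12 libraries, stacked by gene (x axis: treatment, time and replicate). AFP and ALB take most of each bar, and the bar of DMSO 48 h replicate 2 (0.380%) is the shortest.

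Levels spanned from AFP, among the most abundant transcripts of the cells, to SAA1, which had no count. In the DMSO cells at 24 h the order by mean CPM was AFP, ALB, AMBP, TTR, AHSG, RBP4, ORM1, HP, GC and SAA1. The neighbours AHSG and RBP4, and HP and GC, overlapped in their libraries in that group. AFP ranked 2, 3, 12 and 2 among all genes by mean CPM in DMSO 24 h, Molidustat 24 h, DMSO 48 h and Molidustat 48 h, and ALB ranked 30, 13, 47 and 13. The ranks in DMSO 48 h include replicate 2. Without that library the mean there was 7099 CPM instead of 6035 for AFP, and 2425 instead of 2038 for ALB. Divided by the length of the canonical transcript, AFP stood at 2529 CPM per kb in DMSO at 24 h, AMBP at 891, ALB at 814 and TTR at 701. AMBP and ALB, and ALB and TTR, overlapped on this scale. Since reads came from the 3′ end, CPM does not grow with length as in whole-transcript libraries, and both scales are given for that reason.

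**Figure D2:**
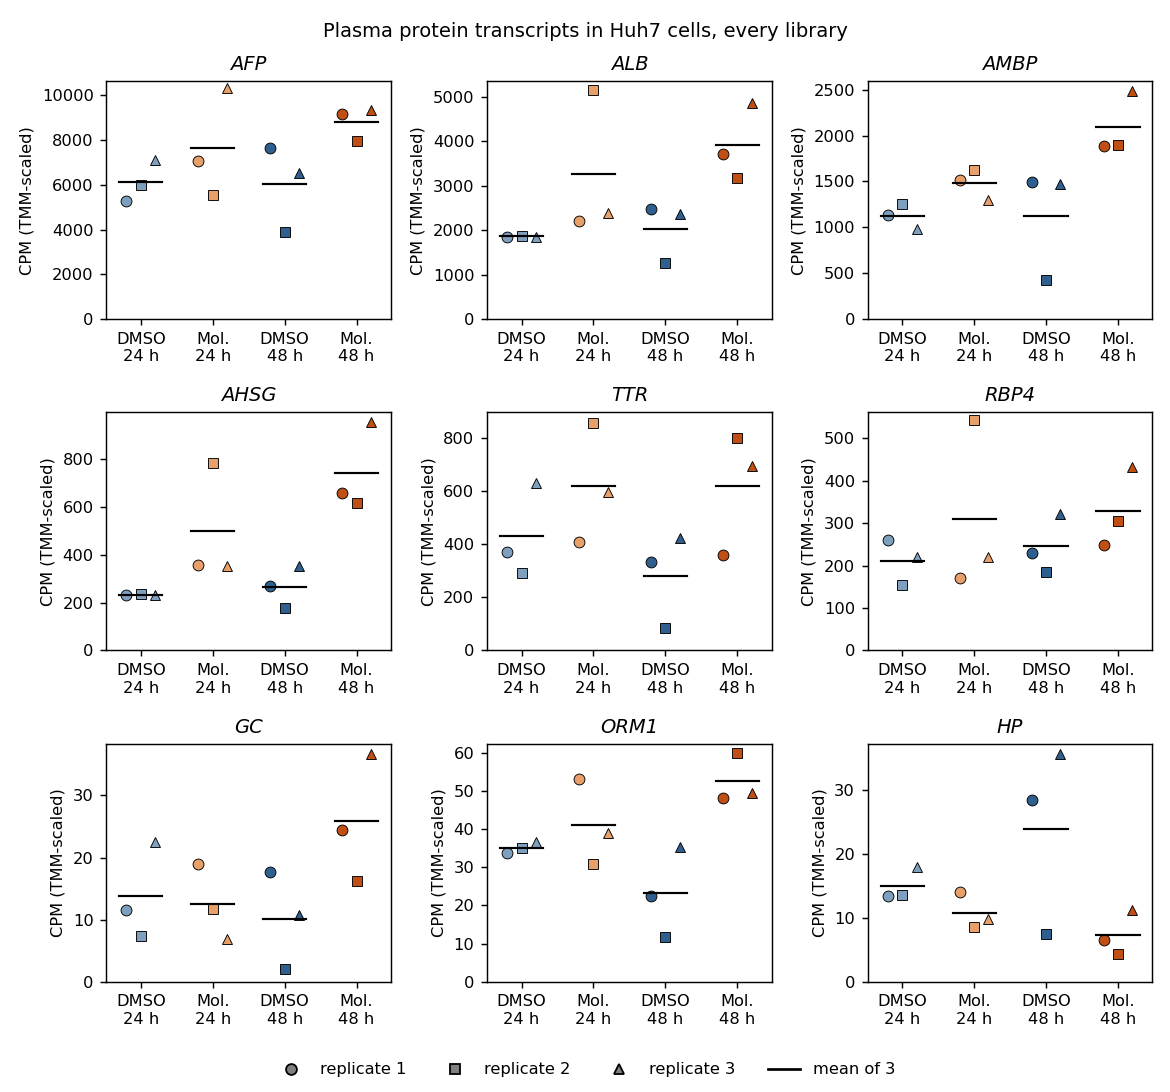
Level of 9 plasma protein transcripts (TMM-scaled CPM, y axes from 0) in each library of the 4 groups. Points are replicates and lines are means of 3. AHSG libraries with Molidustat lie above those with DMSO at both times, while the square of DMSO 48 h is the lowest point of 7 panels. SAA1 had 0 counts in every library and is not drawn.

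SAA1 was removed by the filter on low counts, and 9 members were tested. Of these, 7 had a positive log2 fold change with Molidustat at 24 h and 8 at 48 h, against 51.5% and 50.4% of the 14274 genes tested. Their median log2 fold change was 0.40 at 24 h and 0.94 at 48 h, and that of all genes tested was 0.02 and 0.01. The 3 Molidustat libraries were all higher than the 3 DMSO libraries for 3 members at 24 h (ALB, AHSG and AMBP) and for 5 at 48 h (the same 3 with AFP and ORM1), where 7.26% and 9.96% of all genes tested did so. However, no member passed the threshold used here for a change (a log2 fold change beyond 1 with an adjusted p under 0.05). EdgeR called 0 of 9 members at each time, with 0.231% of all genes called higher and 0% lower at 24 h, and 0.21% higher and 0.021% lower at 48 h. At an unadjusted p under 0.05 there was 1 member at 24 h (AHSG), against 5.25% of all genes. At 48 h there were 5 on the higher side (ALB, AHSG, TTR, AMBP and ORM1) and 1 on the lower (HP), against 4.53% and 8.81% of all genes. DESeq2 called 0 members at 24 h, with 0.946% of all genes called higher and 0.0853% lower. In the 48 h comparison DESeq2 called 1 member, AHSG, with 1.42% of all genes called higher and 1.46% lower. Without DMSO 48 h replicate 2 the members' median at 48 h was 0.68, and edgeR again called 0 of 9, with 0.315% of all genes called higher and 0.0328% lower. The methods of the study describe 3 biological replicates in each condition, and its design text triplicate RNA extractions. P-values therefore measure the spread between these samples, and whether this covers separate cultures was not settled. In edgeR all 12 libraries were fitted together with 1 estimate of the spread of each gene. P-values and SE at 24 h thus also drew on the 48 h libraries. With DMSO 48 h replicate 2 left out, 0.728% of all genes were called higher at 24 h, against 0.231%.

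**Figure D3:**
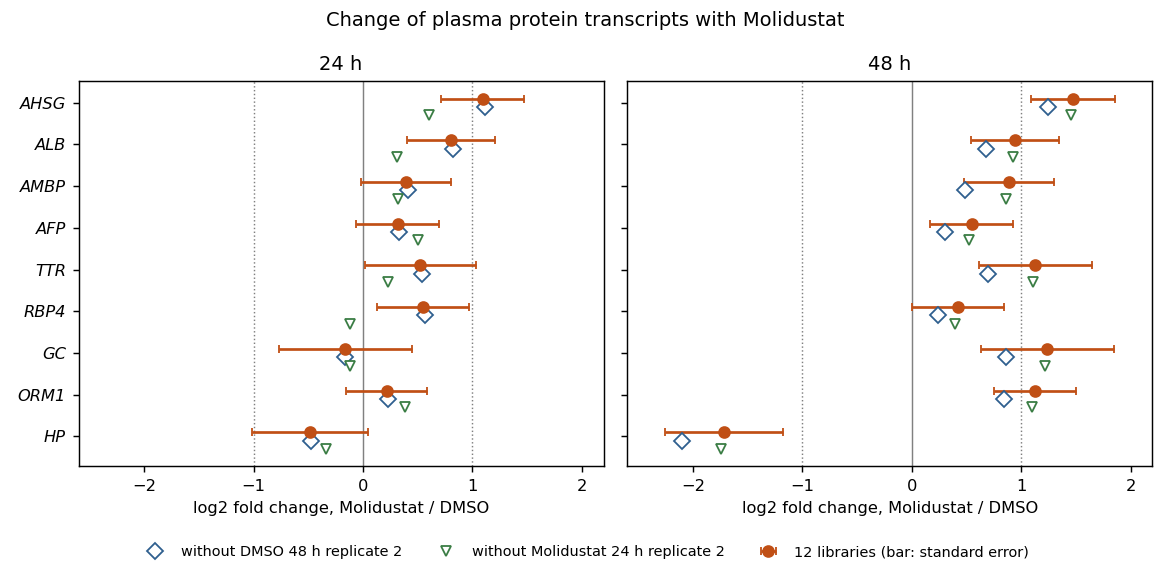
Log2 fold change of 9 plasma protein transcripts, Molidustat over DMSO, at 24 h and 48 h. Filled circles are values over 12 libraries with standard errors, open symbols values with 1 library left out, and dotted lines mark a log2 fold change of 1. HP is the one member below 0 at 48 h (-1.72), and RBP4 at 24 h moves from 0.55 to -0.12 without Molidustat 24 h replicate 2.

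AHSG, which encodes fetuin-A, an inhibitor of calcium phosphate precipitation, had the highest positive log2 fold change of the members at 24 h and at 48 h. It stood at 233.6, 235.7 and 230.1 CPM in DMSO and at 357.4, 782.3 and 353.4 CPM in Molidustat at 24 h. At 48 h the values were 267.6, 177.8 and 354.4 CPM in DMSO and 656.1, 614.3 and 956.3 CPM in Molidustat. Each Molidustat library was above each DMSO library of the same time, and the DMSO replicates at 24 h lay within a few CPM of each other. The log2 fold change was 1.09 ± 0.38 (SE, n = 3 per group) at 24 h (edgeR adjusted p = 0.618) and 1.47 ± 0.38 at 48 h (edgeR adjusted p = 0.176). Without Molidustat 24 h replicate 2, the value at 24 h was 0.61. Without DMSO 48 h replicate 2, that at 48 h was 1.24. At 48 h AHSG passed the threshold in DESeq2 (log2 fold change 1.46, adjusted p = 0.0064), in limma-voom with sample quality weights (1.32, adjusted p = 0.0035, with 1.71% of all genes called higher and 0.238% lower), and in edgeR without a filter on low counts (1.46, adjusted p = 0.019).

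ALB was at 1852, 1875 and 1855 CPM in DMSO and at 2217, 5157 and 2397 CPM in Molidustat at 24 h. At 48 h it was at 2482, 1264 and 2368 CPM in DMSO and at 3713, 3180 and 4863 CPM in Molidustat. The groups did not overlap at either time, but Molidustat 24 h replicate 2 was more than 2 times as high as the other libraries of its group. On the log2 scale ALB differed by 0.81 ± 0.40 at 24 h (edgeR adjusted p = 0.974) and 0.94 ± 0.40 at 48 h (edgeR adjusted p = 0.325). It was 0.31 at 24 h without Molidustat 24 h replicate 2 and 0.68 at 48 h without DMSO 48 h replicate 2.

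AFP, the fetal albumin, was at 5295, 6017 and 7097 CPM in DMSO and at 7055, 5555 and 10323 CPM in Molidustat at 24 h, where the groups overlapped. At 48 h it was at 7669, 3908 and 6528 CPM in DMSO and at 9166, 7948 and 9367 CPM in Molidustat, and the groups did not overlap. On the log2 scale AFP differed by 0.32 ± 0.38 at 24 h and 0.55 ± 0.38 at 48 h (edgeR adjusted p = 0.999 and 0.591). The value at 24 h was 0.50 without Molidustat 24 h replicate 2 and 0.03 without replicate 3 of that group, and it was 0.30 at 48 h without DMSO 48 h replicate 2. The interval of 2 SE at 48 h ran from -0.21 to 1.31.

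AMBP, whose product is cut into alpha-1-microglobulin, a heme-binding protein, and bikunin, a protease inhibitor, was at 1139, 1256 and 979 CPM in DMSO and at 1517, 1629 and 1295 CPM in Molidustat at 24 h. After 48 h it was at 1490, 423 and 1474 CPM in DMSO and at 1885, 1900 and 2490 CPM in Molidustat. The Molidustat libraries were higher at both times, and at 48 h DMSO replicate 2 lay far below the others. For AMBP it was 0.40 ± 0.41 on the log2 scale at 24 h and 0.89 ± 0.41 at 48 h (edgeR adjusted p = 0.999 and 0.369), and 0.48 at 48 h without that library.

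TTR and RBP4, which circulate together and carry thyroxine and retinol, varied widely between replicates. TTR was at 334, 86.2 and 423 CPM in DMSO and at 358, 800 and 696 CPM in Molidustat at 48 h, so the groups overlapped. Its log2 fold change was 0.53 ± 0.51 at 24 h and 1.13 ± 0.51 at 48 h (edgeR adjusted p = 0.999 and 0.357), and 0.70 at 48 h without DMSO 48 h replicate 2. With 1 library left out, the value at 24 h lay between 0.22 (without Molidustat 24 h replicate 2) and 0.88 (without DMSO 24 h replicate 3). RBP4 was at 229, 184 and 321 CPM in DMSO and at 249, 305 and 431 CPM in Molidustat at 48 h, again with overlap, and its log2 fold change was 0.42 ± 0.42 (edgeR adjusted p = 0.742). This value was 0.24 without DMSO 48 h replicate 2, and with any 1 library left out it lay between 0.17 (without Molidustat 48 h replicate 3) and 0.68 (without DMSO 48 h replicate 3). At 24 h RBP4 was at 261, 155 and 219 CPM in DMSO and at 170, 541 and 220 CPM in Molidustat. The positive value at that time (0.55 ± 0.42) rested on Molidustat 24 h replicate 2, without which it was -0.12. RBP4 overlaps FFAR4 on the other strand, and AHSG overlaps HRG-AS1, so reads of these pairs may not be told apart where strand was not used in counting.

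GC, the vitamin D carrier, was scarce. It was at 17.6, 2.13 and 10.7 CPM in DMSO and at 24.5, 16.3 and 36.6 CPM in Molidustat at 48 h, with overlap between the groups. The log2 fold change was -0.16 ± 0.61 at 24 h and 1.24 ± 0.61 at 48 h (edgeR adjusted p = 0.999 and 0.399), and 0.86 at 48 h without DMSO 48 h replicate 2. The negative value at 24 h changed sign without DMSO 24 h replicate 3 (0.37) or without Molidustat 24 h replicate 3 (0.12).

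The positive acute phase members differed in sign at 48 h. HP, the hemoglobin scavenger, was the one member with a lower fitted level in Molidustat at 48 h. It had 210, 7 and 345 counts in DMSO and 29, 10 and 60 counts in Molidustat, that is 28.5, 7.45 and 35.7 CPM against 6.52, 4.29 and 11.3 CPM. DMSO 48 h replicate 2 lay among the Molidustat libraries, and the other DMSO libraries were above all of them. The log2 fold change was -1.72 ± 0.54 (edgeR adjusted p = 0.208), and -2.10 (adjusted p = 0.062) without DMSO 48 h replicate 2. At 24 h HP was at 13.3, 13.5 and 18.0 CPM in DMSO and at 13.98, 8.50 and 9.81 CPM in Molidustat, with a log2 fold change of -0.49 ± 0.53 (edgeR adjusted p = 0.999). HP passed the threshold at 48 h with limma-voom and sample quality weights (-1.94, adjusted p = 0.0091), and not with DESeq2 (-1.72, adjusted p = 0.054).

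ORM1, a lipocalin that binds basic drugs, had the opposite sign at 48 h. It was at 22.4, 11.7 and 35.4 CPM in DMSO and at 48.1, 60.1 and 49.6 CPM in Molidustat, without overlap. The log2 fold change was 1.12 ± 0.37 (edgeR adjusted p = 0.227), and 0.84 without DMSO 48 h replicate 2. At 24 h ORM1 was at 33.8, 35.1 and 36.6 CPM in DMSO and at 53.1, 30.8 and 39.0 CPM in Molidustat (0.22 ± 0.37, edgeR adjusted p = 0.999), and the sign of that value turned without Molidustat 24 h replicate 1 (-0.0080).

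Both genes have near-identical copies. Of the 50-base words in the canonical HP transcript, 34.5% were shared with HPR, and 49.8% of those of ORM1 were shared with ORM2. In the last 500 bases, at the 3′ end, the shares were 40.6% for HP and 35.9% for ORM1. The split of reads within each pair is therefore uncertain. HP also overlaps TXNL4B on the other strand. With the reads of each pair summed, the log2 fold change at 48 h was -1.27 for HP with HPR and 1.05 for ORM1 with ORM2. HPR alone was at 13.55, 0 and 16.02 CPM in DMSO and at 8.54, 5.58 and 7.52 CPM in Molidustat at 48 h. ORM2 was at 15.3, 8.52 and 25.1 CPM in DMSO and at 27.9, 39.0 and 29.7 CPM in Molidustat, without overlap, and its log2 fold change was 0.92 ± 0.47 (edgeR adjusted p = 0.433), or 0.65 without DMSO 48 h replicate 2. HPR had -0.54, which became -1.04 without that library and -0.09 without DMSO 48 h replicate 3.

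SAA1, an apolipoprotein of acute phase HDL, had 0 counts in all 12 libraries. A count of 0 allows up to 3 counts, which corresponds to a level of 0.310 CPM in the deepest library and 3.19 CPM in the shallowest. Its copy SAA2 had 8 counts in DMSO 24 h replicate 3, 3 counts in Molidustat 24 h replicate 3 and 0 in the other 10. As 40.9% of the 50-base words of SAA1 are shared with SAA2 (38.6% in the last 500 bases), reads on these may have been set aside as aligned to several places. SAA4, the constitutive serum amyloid A, was at most 6.66 CPM. CRP and APCS, the short pentraxins, had 0 counts in every library.

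The ratio of 2 transcripts within a library does not depend on scaling. The pairs were chosen after their values had been seen, and 17 comparisons over 9 pairs were made with a two-sided exact permutation test, whose smallest p with 3 against 3 is 0.1. The groups did not overlap in 9 of the 17 and overlapped in 8, among them AMBP to AFP at 24 h and 48 h (exact p = 0.9 and 0.2) and AMBP to ALB (exact p = 0.7 and 1). The ratio of AHSG to ALB counts was 0.126, 0.126 and 0.124 in DMSO and 0.161, 0.152 and 0.147 in Molidustat at 24 h. At 48 h it was 0.108, 0.141 and 0.150 in DMSO and 0.177, 0.193 and 0.197 in Molidustat. AHSG was thus higher relative to ALB in every Molidustat library at each time, also in the libraries that stood apart in level. The exact p was 0.1 at each time (0.189 after Benjamini-Hochberg adjustment). Here and below, groups of 3 without overlap always give this exact p. It restates their separation and cannot decide whether a ratio changed.

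The ratio of HP to ORM1 counts was 0.395, 0.385 and 0.492 in DMSO and 0.264, 0.276 and 0.251 in Molidustat at 24 h. At 48 h it was 1.27, 0.636 and 1.01 in DMSO and 0.136, 0.0714 and 0.227 in Molidustat. All Molidustat libraries were below all DMSO libraries at each time, DMSO 48 h replicate 2 included (exact p = 0.1, adjusted 0.189). The ratio of ALB to AFP was 0.350, 0.312 and 0.261 in DMSO and 0.314, 0.928 and 0.232 in Molidustat at 24 h, with overlap (exact p = 0.8, adjusted 0.956). At 48 h it was 0.324, 0.323 and 0.363 in DMSO and 0.405, 0.400 and 0.519 in Molidustat, without overlap (exact p = 0.1, adjusted 0.189). In DMSO 48 h replicate 2 this ratio was within the range of the DMSO libraries at 24 h.

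**Figure D4:**
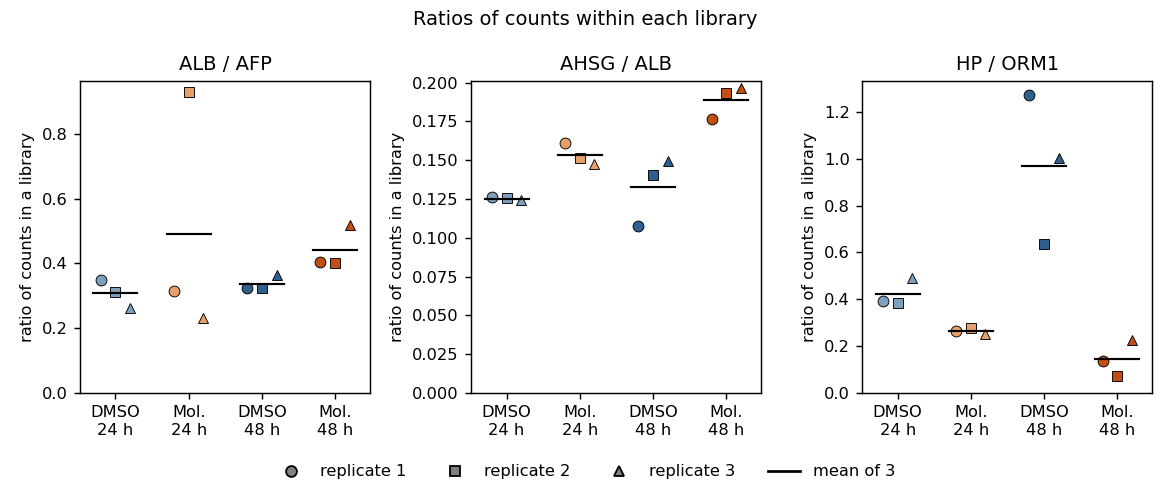
Ratios of counts within each library (y axes from 0) for ALB to AFP, AHSG to ALB and HP to ORM1 in the 4 groups, with points for replicates and lines for means of 3. AHSG to ALB is higher and HP to ORM1 lower in every Molidustat library than in the DMSO libraries of the same time, and Molidustat 24 h replicate 2 stands at 0.928 for ALB to AFP.

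Differences with time did not pass the threshold. The interaction of Molidustat with time was called for 0 of 9 members (0% of all genes in each direction, and 0 members at an unadjusted p under 0.05, against 6.78% of all genes). The extreme values were 1.40 for GC and -1.23 for HP, and the smallest adjusted p was 0.812, for ORM1 (edgeR). Without DMSO 48 h replicate 2 they were 1.02 and -1.62, and GC had 0.85 without DMSO 24 h replicate 3. The small values of ALB (0.14) and AFP (0.23) turned to -0.15 and -0.03 without DMSO 48 h replicate 2. DESeq2 called 0 members for this term, with 0.0142% of genes higher and 0.0427% lower. Between 24 h and 48 h, edgeR called 0 of 9 members in DMSO and 0 of 9 in Molidustat, and 0 members had an unadjusted p under 0.05 in either, against 8.14% and 4.58% of all genes. DESeq2 called 0 members as well, with 0.228% of genes higher and 0.0569% lower in DMSO and 0.0498% and 0.0356% in Molidustat. With DMSO the extreme log2 values were 0.72 for HP and -0.61 for TTR (1.12 and -0.17 without DMSO 48 h replicate 2, and 0.32 and -1.04 without DMSO 48 h replicate 3), while 0% of all genes were called higher and 0.00701% lower. With Molidustat they were 1.06 for GC (0.70 without Molidustat 48 h replicate 3) and -0.51 for HP, with 0% of genes called in each direction, and AMBP was the one member whose 48 h libraries all exceeded those of 24 h (0.50 ± 0.41), against 7.15% of all genes. These comparisons share libraries with those of the drug.

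Of 22 further acute phase plasma proteins, 13 could be tested. At 48 h 12 of the 13 had a positive log2 fold change, with a median of 0.92 (0.65 without DMSO 48 h replicate 2), and edgeR called 0, as at 24 h (11 of 13 positive, with a median of 0.37, or 0.62 without Molidustat 24 h replicate 2). C3, the central complement component, had 1.78 ± 0.51 at 48 h (edgeR adjusted p = 0.198), and 1.54 without DMSO 48 h replicate 2. It passed the threshold at 48 h in DESeq2 (1.77, adjusted p = 0.0328) and in limma-voom (1.60, adjusted p = 0.0374). FGB, the fibrinogen beta chain, had 1.14 ± 0.44 (edgeR adjusted p = 0.266), and 0.79 without DMSO 48 h replicate 2. The other fibrinogen chains, FGA and FGG, had 0.30 ± 0.29 and 0.19 ± 0.29, and the protease inhibitor A2M had 0.19 ± 0.28 (edgeR adjusted p = 0.728, 0.845 and 0.838). Without DMSO 48 h replicate 2, FGA, FGG and A2M had 0.26, 0.17 and 0.02. CP, the copper protein ceruloplasmin, was scarce, with 0.689 CPM in its lowest library. At 24 h its mean was 1.91 ± 1.45 CPM in DMSO and 14.8 ± 3.5 CPM in Molidustat (SD, n = 3). CP had 2.90 ± 0.88 on the log2 scale at 24 h (SE, edgeR adjusted p = 0.387). It passed the threshold there when DMSO 48 h replicate 2 was left out (2.90, adjusted p = 0.0187). At 48 h it differed by 1.03 ± 0.83 over 12 libraries (edgeR adjusted p = 0.66) and by 2.99 without that library (adjusted p = 0.0564), but by 0.47 without DMSO 48 h replicate 3, and it passed in limma-voom (2.998, adjusted p = 4.2e-04).

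Of 22 further transport and other plasma proteins, 13 could be tested as well. At 48 h 12 of these were positive, with a median of 0.72 (10 positive and a median of 0.73 without DMSO 48 h replicate 2), and at 24 h 8 of 13, with a median of 0.35, and edgeR called 0 at each time. TF, the iron carrier transferrin, was at 2195, 636 and 2297 CPM in DMSO and at 5095, 4149 and 5442 CPM in Molidustat at 48 h. The libraries did not overlap, and the log2 fold change was 1.26 ± 0.42 at 24 h and 1.52 ± 0.42 at 48 h (edgeR adjusted p = 0.561 and 0.193). VTN, the adhesion protein vitronectin, had 1.38 ± 0.38 and 1.75 ± 0.38 (adjusted p = 0.298 and 0.0913). SERPINA7, the thyroxine-binding globulin, was scarce, at 1.06 to 38.6 CPM over the 12 libraries. It had 2.50 ± 0.75 and 2.10 ± 0.75 (edgeR adjusted p = 0.376 and 0.241), and 1.80 at 48 h without DMSO 48 h replicate 2. Its value at 48 h was 1.39 without Molidustat 48 h replicate 2, and it passed without DMSO 48 h replicate 1 (3.53, adjusted p = 0.045). It also passed in edgeR without a filter on low counts (2.51, adjusted p = 0.0090, and 2.08, adjusted p = 0.0214). Over all 12 libraries, DESeq2 called TF at 48 h (adjusted p = 0.0057) and VTN at 24 h and 48 h (adjusted p = 0.0129 and 2.3e-04), and limma-voom called both genes at both times. In edgeR, TF and VTN passed the threshold at both times when DMSO 48 h replicate 2 was left out. TF then had 1.27 at 24 h (adjusted p = 0.0016) and 1.11 at 48 h (adjusted p = 0.0351), and VTN had 1.39 (adjusted p = 0.0102) and 1.43 (adjusted p = 0.0438). The members AHSG and ALB did not pass in that fit at either time. AHSG had 1.11 at 24 h and 1.24 at 48 h (edgeR adjusted p = 0.116 and 0.2003), and ALB had an adjusted p of 0.305 and 0.734.

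EdgeR called 0 of the signalling genes and transcription factors that act on these genes. Without DMSO 48 h replicate 2 it called 1 of each list higher at 24 h (OSMR and ZHX2), with 0.728% of all genes, and 0 at 48 h. Of 18 genes of interleukin-6, interleukin-1 and STAT3 signalling, 17 were tested, with a median log2 fold change of 0.37 at 24 h and 0.31 at 48 h, and values from -0.52 to 3.08 and from -0.95 to 1.91. The highest at 24 h was that of OSMR, the receptor of oncostatin M, a cytokine of the interleukin-6 family, with 3.08 ± 0.86 (edgeR adjusted p = 0.312). This gene was scarce, at 0.385 to 24.5 CPM over the 12 libraries. OSMR passed at 24 h without DMSO 48 h replicate 2 (3.09, adjusted p = 0.0475) and in DESeq2 (3.12, adjusted p = 0.0343), and at 48 h it had 0.21 ± 0.79 (edgeR adjusted p = 0.949). All 15 transcription factors of the albumin and AFP genes were tested, with medians of 0.38 and -0.03 and values from -0.24 to 3.62 at 24 h and from -2.10 to 1.16 at 48 h. These medians each depended on 1 library, and were 0.04 at 24 h without Molidustat 24 h replicate 2 and 0.24 at 48 h without DMSO 48 h replicate 2, where 10 of 15 were positive against 7 over 12 libraries. ZHX2, a repressor of AFP, had 1.96 ± 0.56 at 24 h (edgeR adjusted p = 0.344), and 1.97 (adjusted p = 0.0077) without DMSO 48 h replicate 2, and its groups overlapped at 48 h. ONECUT1, a liver factor of the cut family, had 0.68 ± 0.30 at 24 h and 1.16 ± 0.30 at 48 h (edgeR adjusted p = 0.885 and 0.173). It passed the threshold at 48 h in DESeq2 (1.15, adjusted p = 0.0125) and in limma-voom (1.23, adjusted p = 0.0032). HNF4A, a nuclear receptor that drives many hepatocyte genes, was at 70.5, 1237 and 209 CPM in DMSO and at 156, 145 and 108 CPM in Molidustat at 48 h. DMSO 48 h replicate 2 was thus above the other libraries of 48 h for HNF4A, which reached 768 CPM in DMSO 24 h replicate 3, while it was the lowest of all 12 for ALB, AFP and AHSG. Of 11 receptors and binding partners, 7 were tested, of which edgeR called 0. ASGR1, the receptor that takes up desialylated plasma glycoproteins, had 1.13 ± 0.33 at 48 h (edgeR adjusted p = 0.203) and passed in DESeq2 (1.12, adjusted p = 0.0125). Its value was 0.84 without DMSO 48 h replicate 2.

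The genes outside the members whose log2 CPM followed ALB most closely over the 12 libraries, among 6941 genes with a mean of at least 20 CPM, were MVD (Pearson r = 0.965), CITED2 (0.957), CSRP2 (0.945), AKR7A2 (0.945) and GAPDHP40 (0.944). Without DMSO 48 h replicate 2, r was between 0.921 and 0.951 for these 5. Among the members, AHSG followed ALB at r = 0.963 over 12 libraries and 0.961 over 11. AFP followed ALB at 0.532 over 12 libraries and 0.289 over 11, but at 0.706 over 10, without Molidustat 24 h replicate 2 as well. Those most like AFP were OS9 (0.943), RLF (0.911), BACH1 (0.896), LYSMD3 (0.895) and COL5A2 (0.893). The libraries of these correlations share treatment, time and depth, so the values are descriptions.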

How the data were processed

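The authors prepared 3′ libraries with the QIAseq UPX kit, aligned reads with STAR 2.7.9a to GRCh38 and counted them per gene with HTSeq 0.11.2; versions are from the submitters' processing notes. The deposited values are whole-number counts without normalization. The annotation release, the strand setting and the use of molecular identifiers are not given in the sources used here. Of 60666 identifiers, 60437 were named with GENCODE release 44. The 5 summary lines that name no gene were left out.

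Counts of 12 libraries were fitted in edgeR 4.0.16 (R 4.3.3; filterByExpr with a minimum count of 10, TMM, quasi-likelihood test), which tested 14274 of 28430 genes with a count. P-values were adjusted over all of these by Benjamini-Hochberg, and a call needed a log2 fold change beyond 1 with an adjusted p under 0.05. DESeq2 1.42.0 and limma 3.58.1 served as alternatives. The test was also run on simulated counts, in which all libraries shared 1 mean profile apart from the genes changed on purpose. No simulated library had a deviating composition like DMSO 48 h replicate 2, so that run does not cover this case. Replicates differed by more than sampling noise.

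The members and lists were chosen with earlier results of these data known. Of each list, genes called, the 3 most abundant and the 2 with the smallest p at each time were eligible to be named, with all members and their paralogs; CRP, APCS, FGA, APOB and markers at 0 were named after their values were seen. Results for some genes of the drug response are not reported here. For ALB and AFP, the 5 genes of highest correlation were named. Figures were drawn with matplotlib 3.10.9.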

Additional observations from a re-analysis of the deposited data

How the results depend on the processing

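The results at 48 h rest on DMSO libraries of which 1 had few counts and many reads outside genes. The counts of GC, HP and SAA1 are low, as are those of CP, OSMR and SERPINA7 among the other genes.

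The log2 fold changes of the drug at 24 h and 48 h were recomputed for the members and the named list genes, and those with time for a few members. Of 1374 such values, 1306 kept their direction and side of the threshold, 59 came past it, 1 call was lost (BNIP3 at 48 h with only the groups compared) and 8 changed sign, none of them a call. RBP4 turned to -0.12 without Molidustat 24 h replicate 2 and to -0.13 with that library and DMSO 48 h replicate 2 both left out, an alternative chosen after seeing the data. GC turned to 0.37 without DMSO 24 h replicate 3 and to 0.12 without Molidustat 24 h replicate 3, and ORM1 to -0.0080 without Molidustat 24 h replicate 1. With at least 10 counts required in every library, HP and GC could not be tested. The number of members called higher at 48 h was 1 (AHSG) with DESeq2, with no filter on low counts, with limma-voom and sample quality weights, and with both libraries left out (edgeR adjusted p = 0.0197 there). The number called lower at 48 h was 1 (HP) with limma-voom and with both libraries left out (edgeR adjusted p = 0.046). The cause was not tested. Of all genes, 0.542% were called higher and 2.15% lower at 48 h with no filter, and 0.439% and 0.081% with both libraries left out. Both counts were 0 with each single library left out, where 0.0874 to 0.368% of all genes were called higher and 0 to 1.82% lower. RLE factors, total counts, at least 10 counts in every library and only the groups compared gave 0 members called in each direction, with 0.0535 to 0.231% of all genes higher and 0 to 0.014% lower at 48 h, and 0.199 to 0.441% higher and 0% lower at 24 h. With total counts the median of all genes moved by 0.13 at 48 h, and the members' directions at 48 h did not turn.

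With 1 library left out, the values at 24 h ranged from -0.12 to 0.84 for RBP4, from -0.56 to 0.37 for GC and from -0.0080 to 0.39 for ORM1, and at 48 h from -0.33 to 1.46 for OSMR.

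Replicate numbers did not pair the samples: deviations of libraries with the same number correlated between -0.09 and 0.139. With the replicate number as a block, 0 members were called at each time (0.21% of all genes higher and 0% lower at 24 h, 0.154% and 0% at 48 h), and the log2 fold changes at 48 h were 0.94 for ALB, 0.58 for AFP, 1.47 for AHSG and -1.66 for HP.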

Other observations

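SERPINA1, the main plasma protease inhibitor, and APOA1, the protein of HDL, are further secreted hepatocyte products that served as markers of the cell type. Of the 9 hepatocyte markers, 7 had a positive and 2 (HNF4A and APOB) a negative log2 fold change at 48 h, and edgeR called 0. APOB, the protein of low-density lipoproteins, was at 1147, 864 and 1672 CPM in DMSO and at 908, 888 and 886 CPM in Molidustat at 48 h, with overlap. SERPINA1 was at 911, 468 and 1143 CPM in DMSO and at 2392, 2223 and 2691 CPM in Molidustat at 48 h, without overlap. Its log2 fold change was 1.15 ± 0.37 (SE, n = 3 per group) at 24 h and 1.53 ± 0.37 at 48 h, with edgeR adjusted p of 0.475 and 0.135. DESeq2 called SERPINA1 higher at both times over 12 libraries (1.15, adjusted p = 0.0315, and 1.53, adjusted p = 3.5e-04), and APOA1 at 48 h (1.77, adjusted p = 0.0259). In edgeR, SERPINA1 rose at both times when DMSO 48 h replicate 2 was left out (1.16, adjusted p = 0.0149, and 1.23, adjusted p = 0.0474). APOA1 was at 1434, 258 and 1489 CPM in DMSO and at 3143, 3747 and 3858 CPM in Molidustat at 48 h (1.75 ± 0.54 on the log2 scale, edgeR adjusted p = 0.208). At 24 h APOA1 was at 2349, 792 and 2039 CPM in Molidustat and at 1085, 1122 and 1075 CPM in DMSO. Molidustat 24 h replicate 2 was thus the lowest of these libraries for APOA1, whereas it was the highest for ALB, TTR and RBP4.

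AFM, which encodes afamin and lies beside ALB and AFP on chromosome 4, was at most 1.69 CPM in any library.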
